A study of Drosophila melanogaster with 4 samples.

Results

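The Dscam genes of the fly encode cell-surface proteins of the immunoglobulin superfamily, and the 4 of them, Dscam1, Dscam2, Dscam3 and Dscam4, were picked by their FlyBase symbols out of 17559 gene IDs counted in testis RNA. The family was singled out because Dscam4 stood among the genes with the largest gain in a comparison of Caf40 knockdown testes with bam mutant testes, so the contrast of each Dscam gene is given here as a description, its size with its error, and with no test. Poly(A) RNA was sequenced from 2 libraries of bam mutant males and 2 libraries of Caf40 knockdown males, each made from 150 pairs of testes dissected in batches of 50 and described in the study's methods as testes plus seminal vesicle. Nothing states that replicates came from separate cultures beyond their separate numbers, so p-values measure the spread between these libraries, which may be technical. The bam mutant males were bam1/bam86 and carried no heat-shock construct. Per the study's methods, these males did carry CyO. They developed at 22 °C until they were pupae, received 30 min at 37 °C, went back to 25 °C, and their testes were taken out 48 h later. The Caf40 knockdown males were Caf40RNAi(BL67987)/nosGAL4, raised for 3 days at 25 °C and then at 29 °C. At dissection they were 0 to 2 days past eclosion. The study's methods give an age of 0 to 2 days for the dissected males without separating the groups. The nanos driver is active in the stem cells of the germ line and in young spermatogonia, and per the study's methods driver strains used for knockdowns also held UAS-Dicer2. Genotype, strain, rearing temperature, heat shock and sequencing depth changed together between the groups and cannot be told apart. As a check of the labels, the targeted gene Caf40, listed as Rcd-1, stood at 204 and 207 CPM in bam mutant testes and at 13.5 and 16.2 CPM after the knockdown, and RNA of bam, whose alleles are mutant in the first group, at 20.8 and 20.7 against 267 and 249 CPM.

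Dscam proteins carry a row of immunoglobulin domains, then fibronectin type III domains, a single membrane-spanning segment and a cytoplasmic tail. In Dscam1 and Dscam2 the outer domains bind identical copies on a facing membrane. Dscam1 is best known from neurons, where mutually exclusive exons give a very large number of isoforms that let branches of one neuron recognise and avoid each other, and from hemocytes and fat body, where it takes part in immune responses. Dscam2 guides tiling in the visual system through alternative isoforms made in different neurons. Dscam3 and Dscam4 lack the large exon arrays of Dscam1, and less is known of what they do. No role of a Dscam gene in the fly testis is taken as given here.

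The members differ in size and position on the BDGP6 assembly. Dscam4 (FBgn0263219) is a protein-coding gene on the plus strand of chromosome 3L from 8238647 to 8282398, a span of 43.8 kb with 38 distinct annotated exons in 5 transcripts. Dscam2 (FBgn0265296) lies on the same arm, on the minus strand from 7159199 to 7189931. Dscam3 (FBgn0261046) lies on the minus strand of chromosome 3R from 17473935 to 17505667, with 40 distinct exons in 4 transcripts. Dscam1 (FBgn0033159), on the minus strand of chromosome 2R from 7317924 to 7381899, has 118 distinct exons in 75 annotated transcripts. Its merged exons cover 26496 bases, although its longest single transcript has 9145, whereas the same figures for Dscam4 are 7913 and 7815. Counts per gene were deposited, so exon choice within Dscam1 or Dscam2 was not analysed here.

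Dscam4 RNA was nearly absent from bam mutant testes and well represented in the Caf40 knockdown. Sense-strand counts of Dscam4 were 45 and 34 for the bam mutant but 924 and 995 for the knockdown, although the knockdown libraries were the shallower ones (30411385 and 26984758 gene counts, against 118209171 and 95125694 for the bam mutant). Levels are in CPM, the counts per 1000000 of a library's scaled total. Dscam4 stood at 0.397 and 0.365 CPM in bam mutant testes but at 30.7 and 34.3 CPM in knockdown testes. Either knockdown library was far above either bam mutant library, and the replicates of each genotype lay close together. Dscam4 averaged 0.381 ± 0.0228 CPM in bam mutant testes and 32.5 ± 2.53 CPM in knockdown testes (SD, n = 2 each). The fitted log2 fold change was 6.40 (SE 0.13, 95% interval from 6.07 to 6.74), an 84.7-fold higher level in the knockdown testes. Of the 10854 genes that passed the filter on low counts, Dscam4 had the 27th highest log2 fold change. Scaling to a list of germ line genes gave the lowest log2 fold change over the alternatives, 5.64.

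The Dscam4 level in knockdown replicate 1 was 0.896 times that in replicate 2. Markers of accessory gland and of spermatids differed more between these libraries. The 13 accessory gland markers, secreted seminal proteins, summed to 466 CPM (knockdown replicate 1) and 53.8 CPM (knockdown replicate 2). The sums were 10.9 and 3.32 CPM for the bam mutant. All 13 were called higher, against 30.7% of all genes tested. Called means a Benjamini-Hochberg adjusted p under 0.05 from the quasi-likelihood test of edgeR over all genes fitted. The 9 spermatid markers matched summed to 4.12 CPM (knockdown replicate 1) and 132 CPM (knockdown replicate 2), compared with 9.04 and 10.6 CPM for the bam mutant, and 1 of the 9 was called higher. The 9 spermatocyte markers were closer between the knockdown libraries, at sums of 133.8 CPM (replicate 1) and 128.3 CPM (replicate 2). Their bam mutant sums were 84.0 and 80.3 CPM. Of the 7 tested, 4 were called higher and 3 were not called. Where the RNA of the accessory gland, spermatid and spermatocyte markers came from, and its part in the Dscam4 difference, was not tested. Leaving out 1 library at a time gave log2 fold changes of Dscam4 from 6.26 to 6.44.

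Dscam1 was well represented in every library and was lower in the knockdown. Its counts were 8720 and 6766 for the bam mutant but 1291 and 1092 for the knockdown, or 77.0 and 72.6 CPM against 42.9 and 37.6 CPM. The groups did not overlap. The means were 74.8 ± 3.07 and 40.3 ± 3.74 CPM (SD, n = 2 each), and the log2 fold change was -0.89 (SE 0.08, 95% interval from -1.10 to -0.69), leaving 53.8% of the bam mutant level, and -1.67 with scaling to the germ line list. In whole testes, fewer cells of a type and less RNA per cell cannot be told apart. Hemocytes are among the cells known to express Dscam1. The 6 hemocyte markers, Hml, NimC1, He, eater, Pxn and srp, were all called lower, against 33.0% of all genes tested. Their sums were 510 and 420 CPM in the bam mutant and 91.7 and 67.9 CPM in the knockdown. The 7 neuron markers matched summed to 68.8 and 72.9 CPM in the bam mutant and 32.4 and 36.4 CPM in the knockdown. The lower sum lay in nSyb, at 43.0 and 47.1 CPM against 2.19 and 2.03 CPM, while the other 6 summed to 25.8 CPM in either bam mutant library and to 30.2 and 34.3 CPM in the knockdown. Among the 5 of them tested, nSyb was called lower, Appl higher and 3 were not called, while VGlut and fne had 0 to 3 counts in any library. Of 4 glial markers 2, moody and Eaat1, were called lower, and the sums were 357 and 376 CPM against 65.6 and 58.1 CPM, while repo, which defines glia, stood at 0.133 to 0.238 CPM in all 4 libraries. The 9 muscle markers matched summed to 1399 and 1578 CPM in the bam mutant and 897 and 1036 CPM in the knockdown. Of these, 7 were called lower and 2 were not called. The part of any of these cell types in the Dscam1 difference was not tested.

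Dscam3 was low in every library and lower in the knockdown. The bam mutant libraries held 211 and 157 Dscam3 counts, the knockdown libraries 24 and 26, or 1.86 and 1.69 CPM against 0.798 and 0.896 CPM. The groups again did not overlap. The means were 1.77 ± 0.125 and 0.847 ± 0.0694 CPM (SD, n = 2 each), with a log2 fold change of -1.07 (SE 0.31, 95% interval from -1.86 to -0.28). The low counts leave this interval wide. The value was -1.08 (SE 0.62) without bam mutant replicate 1, -1.22 (SE 0.59) without bam mutant replicate 2, and -1.83 with scaling to the germ line list.

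Dscam2 was at the limit of detection. The bam mutant libraries held 1 and 9 Dscam2 counts, and either knockdown library held 0. A count of 0 allows up to 3 counts, which is 0.0997 and 0.103 CPM in the knockdown libraries, and the bam mutant levels were 0.00883 and 0.0966 CPM. These levels lie at or under the knockdown limits, so a difference was not detectable at this depth and no fold is given. Dscam2 did not pass the filter on low counts and is the only member of the 4 outside the fit. Intervals and limits from counts cover counting error only.

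In each of the 3 members in the fit the libraries of the genotypes did not overlap, as in 83.4% of all 10854 genes tested. By the adjusted p, 63.7% of all genes were called, 30.7% higher and 33.0% lower. Since the contrast itself chose the family, no call is given for a member and nothing is read from this count.

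**Figure D1:**
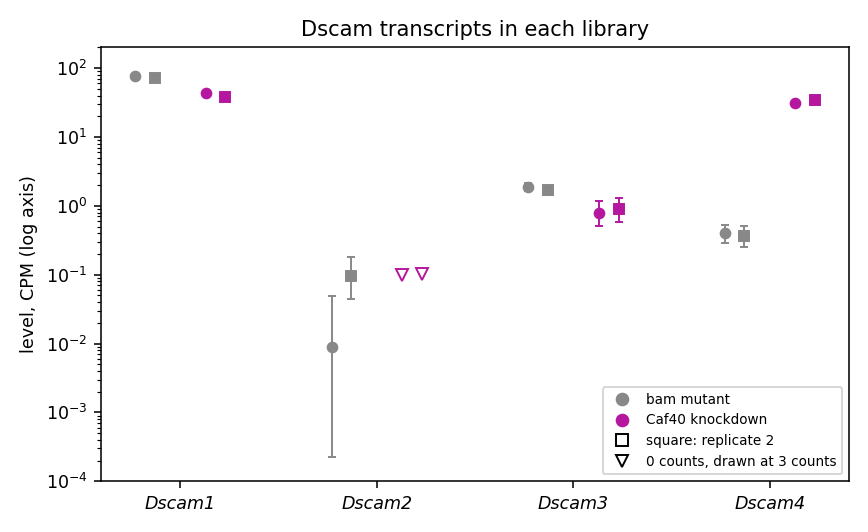
Level of each Dscam gene in each library, in CPM on a log axis; circles are replicate 1, squares replicate 2, bars are exact Poisson 95% counting intervals, and open triangles mark libraries with 0 counts, drawn at the level of 3 counts. Dscam4 sits at 0.397 and 0.365 CPM in bam mutant libraries but at 30.7 and 34.3 CPM in knockdown libraries, while Dscam1 and Dscam3 are lower in the knockdown.

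The make-up of the family differed with genotype. Dscam1 gave 97.1% of the family's counts, not corrected for length, in either bam mutant library. In the knockdown it gave 57.7% and 51.7%. Dscam4 gave 0.501% and 0.488% of the family's counts in the bam mutant (Wilson 95% intervals from 0.375% to 0.670% and from 0.349% to 0.681%) and 41.3% and 47.1% in the knockdown (intervals from 39.2% to 43.3% and from 45.0% to 49.2%). The order of the members by level per length was Dscam1, Dscam3, Dscam4, Dscam2 in the bam mutant, with no overlap between neighbours in that order. In the knockdown Dscam4 moved past Dscam3. There the level per kb of longest transcript was 4.69 and 4.11 CPM per kb for Dscam1 and 3.93 and 4.39 CPM per kb for Dscam4. These values overlap, so the pair could not be ordered by level per length. Dscam3 followed at 0.0969 and 0.109 CPM per kb. With all annotated exons merged in place of the longest transcript, the mean ratio of Dscam4 to Dscam1 in the knockdown moved from 0.952 ± 0.162 (SD, n = 2) to 2.72, because the merged length of Dscam1 counts exons that no single transcript holds together.

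Summed over the 4 genes, the level per kb of longest transcript was 8.70 and 8.20 CPM per kb for the bam mutant, and 8.72 and 8.61 CPM per kb for the knockdown. The libraries of the genotypes lay in the same range, since the higher Dscam4 level was close in size to the lower Dscam1 level. The ratio of the means, 1.03, depended on the scaling and on the length used. It was 0.599 with scaling to the germ line list and 1.86 with merged exons, both alternatives chosen after seeing the data.

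**Figure D2:**
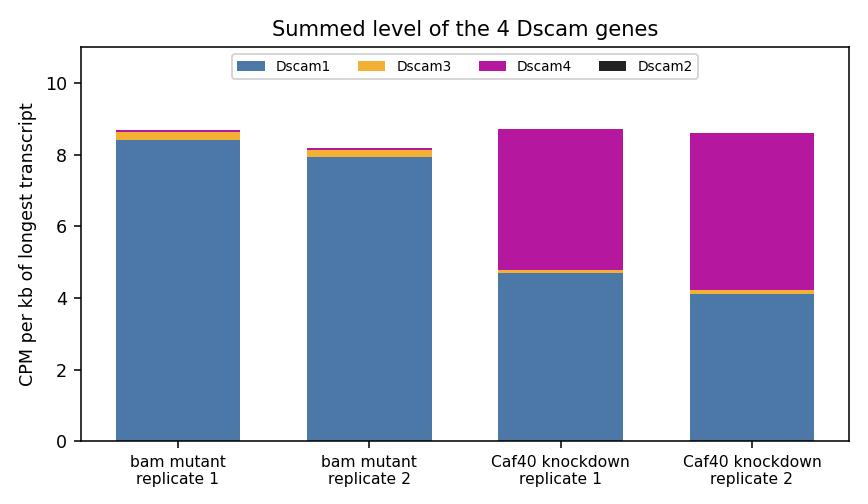
Summed level of the 4 Dscam genes in each library, in CPM per kb of the longest annotated transcript, stacked by gene (each bar is 1 library, with no error bar). The bars reach 8.70, 8.20, 8.72 and 8.61, and Dscam4 fills 45.1% and 51.0% of the knockdown bars against 0.585% and 0.569% of the bam mutant bars.

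Reads on the opposite strand of each gene were counted apart, and their share is a description, since it holds the sense count too. Over all genes the opposite strand held 2.47% to 2.54% of the stranded gene counts. In the knockdown, 2 and 5 Dscam4 reads lay on the opposite strand, beside 924 and 995 on the sense strand, or 0.216% and 0.5%. Pooled over the knockdown libraries the share was 0.363% with a Wilson 95% interval from 0.176% to 0.748%, under the share over all genes. In the bam mutant 11 and 9 reads lay on the opposite strand beside 45 and 34 sense reads, a pooled share of 20.2% with an interval from 13.5% to 29.2%. The opposite-strand level itself was 0.0971 and 0.0966 CPM for the bam mutant libraries, against 0.0665 and 0.172 CPM for the knockdown, which overlap. Unstranded counts take reads of either strand but are not the sum of the strand counts. For Dscam4 in bam mutant replicate 1 there were 52, beside 45 sense and 11 opposite-strand reads. With unstranded counts the log2 fold change of Dscam4 was 6.13.

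For Dscam1 the opposite strand moved the other way to the sense strand. It held 172 and 132 reads for the bam mutant but 74 and 76 for the knockdown, or 1.52 and 1.42 CPM against 2.46 and 2.62 CPM. The share was 1.93% and 1.91% in bam mutant testes and 5.42% and 6.51% in the knockdown, with Wilson intervals that did not overlap between genotypes. An annotated antisense RNA, asRNA:CR45129 (chromosome 2R, 7325896 to 7335195), shares 743 exonic bases with Dscam1. It stood at 1.28 and 1.25 CPM in the bam mutant and at 1.79 and 2.31 CPM in the knockdown, with a log2 fold change of 0.70 that was not called (adjusted p 0.0940, by the edgeR test named above, as for every adjusted p that follows). For Dscam3, the bam mutant libraries held 18 and 15 opposite-strand reads, and no such read was counted in the knockdown.

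To place the members among the molecules they work with, a list of 15 ligands, co-receptors, signalling proteins and regulators of Dscam1 or Dscam2, known from the fly nervous system, was read from the same fit. All 15 were tested, 4 were called higher and 4 lower, against 63.7% of all genes, with a median log2 fold change of -0.13 beside 0.03 over all genes. The count is thus near the background in the main fit. With scaling to the germ line list all 15 were called, 13 of them lower. In that setting 8003 of all 10854 genes were called, 7469 of them lower. With every gene of at least 1 count, 14 of the 15 were called, against 6815 of 15146 genes. Both counts lie above the share over all genes. Without Caf40 knockdown replicate 1 the median of the list was -0.21. The ligand gene sli, whose secreted protein Slit repels growing axons and binds Robo receptors and Dscam1, rose from 28.2 and 31.0 CPM to 97.01 and 96.7 CPM. Its log2 fold change was 1.71 (SE 0.07, adjusted p 3.94e-05). The Netrin genes moved the opposite way. NetA fell from 12.8 and 12.7 CPM to 6.85 and 5.99 CPM (log2 fold change -0.99, adjusted p 0.00205). NetB was called lower at -0.97 (adjusted p 0.0165), but without bam mutant replicate 1 it was at -1.20 (adjusted p 0.0509) and without bam mutant replicate 2 at -0.90 (adjusted p 0.115). Among the co-receptors, the Netrin receptor gene fra fell by 0.50 on the log2 scale (adjusted p 0.00134). The Slit receptor gene robo1 was called higher at 0.28 (adjusted p 0.00524), yet it was at 0.18 (adjusted p 0.0725) without bam mutant replicate 1, at 0.21 (adjusted p 0.0548) without bam mutant replicate 2 and turned to -0.49 under scaling to the germ line list.

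Inside the cell, dock, which encodes the SH2/SH3 adaptor that links the tail of Dscam1 to Pak, stood at 88.5 and 87.6 CPM in the bam mutant and 133.5 and 126 CPM in the knockdown. It was called higher at 0.56 (adjusted p 4.98e-04), and turned to -0.22 under scaling to the germ line list. The kinase genes Pak and Abl, the GTPase gene Rac1 and the phosphatase gene Ptp69D were at -0.09, -0.14, -0.15 and 0.12, none of them called. The strongest difference in the list was in hiw, which encodes the ubiquitin ligase Highwire. It rose from 6.59 and 7.69 CPM to 60.8 and 57.1 CPM, an 8.26-fold higher level, or 3.05 on the log2 scale (SE 0.10, adjusted p 3.07e-05). Highwire restrains the kinase Wallenda in neurons, and Wallenda raises Dscam1 protein there. The Wallenda gene wnd fell from 31.8 and 33.4 CPM to 17.4 and 15.8 CPM (log2 fold change -0.97, adjusted p 3.03e-04). Fmr1, which represses translation of Dscam1 RNA in neurons, was at -0.10 and was not called. The splicing regulators mbl, which sets the Dscam2 isoform, and Hrb87F, which acts on the Dscam1 exon arrays, were at -0.13 and -0.15, also not called.

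Of 16 other fly receptors that combine immunoglobulin and fibronectin type III domains, 15 were matched to a counted gene ID and 14 were tested. Of those 3 were called higher and 6 lower, a share near the 63.7% of all genes, with a median log2 fold change of 0.12 beside 0.03. None came near the log2 fold change of Dscam4. The values ran from -2.004 to 0.86. Without Caf40 knockdown replicate 1 or 2 the median, then over 15 tested receptors, was -0.04 and -0.41, beside -0.02 and -0.04 over all genes. Without bam mutant replicate 1 or 2 it was 0.04 and -0.006, beside 0.02 and -0.0008. The sign of the receptor median thus depended on single libraries. The largest increase was in ihog, a co-receptor for Hedgehog, at 24.4 and 23.4 CPM in the bam mutant and 45.4 and 41.4 CPM in the knockdown. Its log2 fold change was 0.86 (adjusted p 3.58e-04), which was 0.08 and not called (adjusted p 0.322) under scaling to the germ line list. Its paralog boi went the other way, from 25.9 CPM in both bam mutant libraries to 15.8 and 14.0 CPM (log2 fold change -0.80, adjusted p 7.15e-04). Lar, a receptor tyrosine phosphatase, was called higher at 0.37 (adjusted p 0.00667) and turned to -0.41 under scaling to the germ line list.

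The largest decrease was in bdl, which encodes the adhesion protein Borderless. It fell from 65.2 and 64.7 CPM to 15.7 and 16.7 CPM, which is -2.004 on the log2 scale (SE 0.07, adjusted p 3.19e-05). The Slit receptor gene robo2 fell from 24.4 and 27.8 CPM to 10.2 and 8.51 CPM (-1.48, adjusted p 3.39e-04). Cont, which encodes the septate junction protein Contactin, fell from 413 and 409 CPM to 212 and 188 CPM (-1.04, adjusted p 2.15e-04). Its partner gene Nrg, for Neuroglian, fell by 0.47 on the log2 scale (adjusted p 0.00224). The genes sdk, tutl, Fas2, sns and Ptp69D were not called. The 10 markers of somatic cyst and hub cells, which form such junctions in the testis, summed to 518 and 527 CPM in the bam mutant. In the knockdown they summed to 361 and 324 CPM. Of the 10, 7 were called lower and 1 higher, against 33.0% and 30.7% of all genes. The part of these cells in these differences was not tested. All 10 germ line markers matched were called higher, at sums of 1594 and 1549 CPM against 2773 and 2486 CPM.

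**Figure D3:**
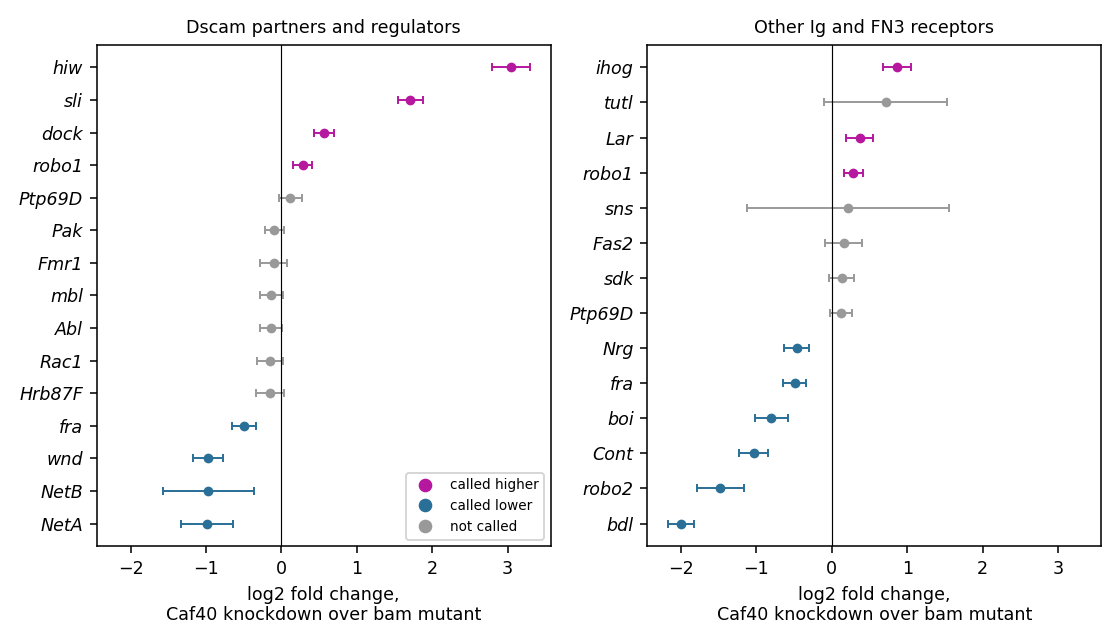
Log2 fold change of Caf40 knockdown over bam mutant with its 95% interval for 15 Dscam partners and regulators (left) and 14 other receptors with Ig and FN3 domains (right), 2 libraries per genotype, coloured by the call at an adjusted p under 0.05. The partner values run from -0.99 (NetA) to 3.05 (hiw) and the receptor values from -2.004 (bdl) to 0.86 (ihog).

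To see whether genes beside Dscam4 differed as Dscam4 did, every counted gene within 100 kb of either end was read from the fit. Of 52 such genes 42 were tested, 13 were called higher and 15 lower, or 66.7% against 63.7% of all genes, and their log2 fold changes ran from -2.79 to 2.51 around a median of 0.04. Leaving out bam mutant replicate 1 or 2 gave medians of -0.06 and -0.07, beside 0.02 and -0.0008 over all genes. The same window held 16 called of 28 tested genes at Dscam1, 13 of 19 at Dscam2 and 11 of 15 at Dscam3. No gene in the Dscam4 window came near its 6.40. The only annotated gene overlapping Dscam4, CG7213 on the opposite strand, shares 1955 bases of its span but no exonic base. It was lower in the knockdown, at 2.48 and 2.01 CPM against 0.199 and 0.448 CPM (log2 fold change -2.79, adjusted p 0.00448), though without bam mutant replicate 1 or 2 it was at -2.70 and -3.01 with adjusted p of 0.0781 and 0.0519. On the other side lies cert, the ceramide transfer protein gene, on the minus strand. The end of its transcripts lies 0.130 kb past the end of Dscam4. The cert level fell by 0.58 on the log2 scale (adjusted p 6.12e-04).

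Other neighbours act in germ cells. The gene tut, which encodes a partner of Bam, lies 27.9 kb from Dscam4 and stood at 28.7 and 26.5 CPM in the bam mutant and 43.7 and 40.3 CPM in the knockdown (log2 fold change 0.61, adjusted p 0.00144). The gene eIF4E3, a testis form of the cap-binding protein, lies 8.08 kb away and was at 0.72 (adjusted p 7.42e-04). Under scaling to the germ line list they turned to -0.17 and -0.06. The largest increases in the window were in CG7387 (2.51, adjusted p 0.00375), CG7366 (2.47, adjusted p 0.0124), ImpE1 (1.43, adjusted p 0.0434) and CG8006 (1.37, adjusted p 0.0319), none of which reached 5 CPM in any library. Without bam mutant replicate 1 their adjusted p was 0.0555, 0.165, 0.417 and 0.247. Without bam mutant replicate 2, it was 0.161, 0.433 and 0.202 for the last 3 named. ImpE1 lost its call in 8 of 14 alternatives, among them Caf40 knockdown replicate 1 left out (1.08, adjusted p 0.106), the DESeq2 test (0.107), thinning (0.0651) and the replicate block (0.0846). CG8006 also lost its call under scaling to the germ line list (0.273) and with every gene of at least 1 count (0.0743). Besides CG7213, the largest decreases were in CG13676 (-1.79), CG8012 (-1.71) and lncRNA:CR43953 (-1.69). With unstranded counts CG13676 turned to 0.50.

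**Figure D4:**
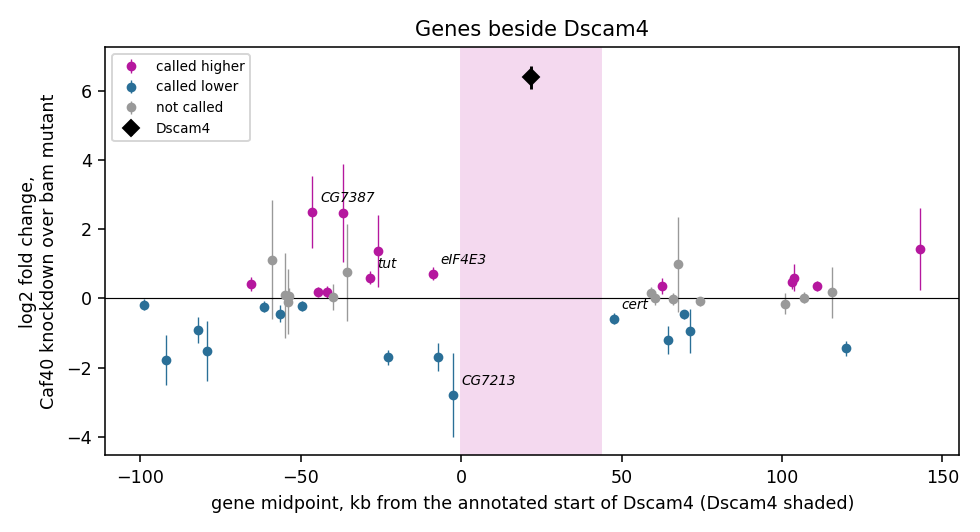
Log2 fold change of Caf40 knockdown over bam mutant for the 42 tested genes within 100 kb of Dscam4 and for Dscam4 itself, against the distance of each gene's midpoint from the annotated start of Dscam4 in kb; bars are 95% intervals and the shaded band is the 43.8 kb span of Dscam4. The neighbours lie from -2.79 to 2.51 on both sides of 0, below the 6.40 of Dscam4.

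The genes most like Dscam4 over the 4 libraries were found by the Euclidean distance between log2 CPM profiles (prior count 2), each centred on its own mean. The 5 nearest were CG17475, lncRNA:CR44057, prom, CG33017 and CG31683, at distances of 0.328 to 1.06 log2 units, and 3 of the 5 were also among the nearest 5 with a prior count of 0.5. With that prior count, CG17475 ranked 30 and prom 67, so their likeness depends on how counts of 0 are treated. They lie on chromosomes 3R, 2L, 2R, 2R and 2L, apart from Dscam4. CG17475 had 82 and 65 counts in the knockdown and 0 in both bam mutant libraries, at least 69.5-fold higher against the limit of 3 counts per library. The gene prom, which encodes Prominin, a membrane protein known from photoreceptors, had 135 and 97 counts in the knockdown and again 0 in both bam mutant libraries, at least 104-fold higher. CG33017 went from 0.177 and 0.258 CPM to 9.61 and 11.1 CPM.

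Dscam4 was 1 of 4 fitted genes under 1 CPM in both bam mutant libraries and over 10 CPM in both knockdown libraries. These limits were chosen after the values were seen, and Dscam4 for its gain in this contrast, so nothing is read from the number. The others were uif, CG10654 and CG43163. The gene uif, for the large epithelial membrane protein Uninflatable, went from 0.512 and 0.784 CPM to 13.8 and 25.4 CPM. CG10654 went from 0.521 and 0.515 CPM to 10.5 and 10.7 CPM. CG43163 went from 0.618 and 0.666 CPM to 10.8 and 14.1 CPM, and it lies on chromosome 3L from 8472807 to 8507146, 190 kb past the end of Dscam4.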

How the data were processed

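Per the labels, the libraries kept strand and were made from poly(A) RNA. The authors trimmed reads with Trim Galore, aligned them to dm6 with STAR and deposited raw read counts per gene, 1 file per library, unstranded and for each strand. Tool versions and the annotation release are not given in the sources used here. The authors' tables of normalised counts (4 per-sample columns, of which some names do not match the labels) and of DESeq2 results (mean, fold change, its error, statistic and p-values) were not used. Per the file rows, 26.9% to 30.8% of read pairs fell in entries that name no gene and were left out. Reads shared by similar exons could be lost as multimapping.

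Symbols matched 17253 of 17559 gene IDs, and coordinates and lengths came from Ensembl 115 of BDGP6.54, which uses dm6 coordinates. List genes with no matching ID (hbs, para, vas, wupA, Mst35Ba, Mst35Bb) were not analysed here. Counts on the strand the kit reads were filtered by filterByExpr, scaled with TMM (a trimmed mean of log ratios) and fitted with edgeR 4.0.16 in R 4.3.3 (quasi-likelihood, two-sided, group only), with DESeq2 1.42.0 as an alternative. The fitting code was tested on simulated data. Standard errors are the log2 fold change over the root of F. A count of 3 corresponds to 0.0265 to 0.103 CPM. With 2 libraries against 2, an exact permutation test could not pass 0.05, so p-values come from the model shared across genes. Members and lists were chosen with earlier results of these data known. Named genes were all members, up to 4 called genes with the largest change per direction in each list, and the 5 genes nearest to Dscam4 in profile; other list genes appear where a role is described.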

Additional observations from a re-analysis of the deposited data

How the results depend on the processing

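The sign of the Dscam4, Dscam1 and Dscam3 differences was the same under all 14 alternatives, with standard errors of 0.62 and 0.59 for Dscam3 without bam mutant replicate 1 and 2. The alternatives were other scalings, filters, the DESeq2 test, unstranded counts, thinning of the bam mutant libraries, a replicate block and leaving out each library. Scaling to the germ line list, which shifted the median of all genes from 0.03 to -0.74, moved them most, to 5.64 (Dscam4), -1.67 (Dscam1) and -1.83 (Dscam3), and gave 15 called partner genes. It also changed the split of all calls, from 3329 higher and 3583 lower to 534 higher and 7469 lower. With every gene of at least 1 count, Dscam4 was at 6.26, Dscam1 at -1.04, and 14 partner genes were called. In that setting 2608 genes were called higher and 4207 lower. Upper quartile scaling gave 6.55 for Dscam4 and 4272 higher calls against 3174 lower, and unstranded counts gave 6.13. Leaving out 1 library gave 6.26 to 6.44 for Dscam4, -1.04 to -0.80 for Dscam1, -1.22 to -1.03 for Dscam3, 9 to 14 called partner genes, 8 to 13 called receptor genes, 16 to 27 called neighbours and 5004 to 8275 called genes in all, of which 38.3% to 49.4% were higher. Windows of 50 and 200 kb held 16 called of 23 tested neighbours and 47 of 68. These shares were 69.6% and 69.1%, against 66.7% at 100 kb and 63.7% of all genes. Merged exons moved the ratio of Dscam4 to Dscam1 per kb to 2.72 and the family ratio to 1.86, and the germ line list moved the latter to 0.599. Replicates share only a number, and the deviations of same-numbered libraries correlated at 0.26 across genes. With the replicate block 6792 genes were called, against 6912. Dscam2 could be fitted only without the filter, and no fold is given for it. In each case the cause was not tested. Depth limits Dscam2 and, in the knockdown, Dscam3.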
